A study of Mus musculus with 20 samples.

Results

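The genes described here encode the mitochondrial respiratory chain and ATP synthase. They were chosen by symbol: rows starting with Nduf, Uqcr, Atp5 or Cox4 to Cox8, or equal to Sdha, Sdhb, Sdhc, Sdhd, Cyc1 or Cycs. This rule gave 90 of the 15465 genes with values. Of these, 76 are subunits of complexes I to IV and ATP synthase or cytochrome c. The others are 6 tissue or condition isoforms of complex IV, 4 complex I assembly factors, the supercomplex factor Cox7a2l, and 3 genes that share a name start but are no subunits (Cox4nb, a neighbour of Cox4i1, and Atp5s and Atp5sl).

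The respiratory chain sits in the inner mitochondrial membrane. Complexes I and II pass electrons through ubiquinone to complex III, cytochrome c carries them to complex IV, and complex IV hands them to oxygen. Complexes I, III and IV pump protons, and ATP synthase uses the returning protons to make ATP. Most subunits are encoded in the nucleus and made in every cell with mitochondria, while complex IV has isoforms that differ by tissue or by oxygen supply. The subunits encoded in mitochondrial DNA were not analysed here.

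The libraries came from lung metastases of 4 mice and from primary tumours of the same 4 mice, numbered 1 to 4. This is the breast cancer (BC) model of the series: all tumours were 4T1 derived, grown in an orthotopic mouse model and taken at 28 days. 4T1 is a single mouse mammary carcinoma line, so all tumours share one origin, and the labels name no host strain. Values are normalised read counts, gene reads per about 1000000 reads of a scaled library, with no correction for gene length, so levels are compared between libraries and not between genes. In whole tissue, fewer cells of a type and less RNA per cell cannot be told apart.

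Depth was 15447918 reads in lung metastasis 3 and 24459226 to 28995834 reads in the other 7 libraries. Lung metastasis 3 stood apart: across genes, its log2 values correlated with those of the other metastases at 0.832 to 0.888, against 0.954 to 0.968 among the other metastases and 0.95 to 0.976 among primary tumours. It also held the most lung, neutrophil and red-cell signal. The 17 lung epithelium markers, all in the table, summed to 20159, 10238, 36015 and 7825 in lung metastases 1 to 4, against 114 to 157 in primary tumours. The 13 neutrophil markers, all in the table, summed to 14437, 8094, 31604 and 9524 in the metastases, against 386 to 2777 in primary tumours. The 7 erythroid markers summed to 2273, 1970, 9639 and 4038, against 51.1 to 167. No marker of these 3 lists was at 0 in all 4 libraries of a group. The epithelial tumour list (Epcam, Cdh1 and keratins, 7 of 7 in the table) summed to 1574, 1644, 984 and 3338 in lung metastases 1 to 4, against 1442 to 2805 in primary tumours. Changes that moved by more than 1.5 times without lung metastasis 3 are also given below without it.

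The chain as a whole was not shifted in a way that held across the 4 mice. All 90 members together summed to 12972, 11830, 6658 and 14753 in lung metastases 1 to 4, and to 14725, 12413, 12332 and 12667 in primary tumours 1 to 4. Metastasis 3 was far below every other library, metastasis 4 was the highest of the 8, and the groups overlapped. As a share of all reads this was 0.638% to 1.44% in metastases and 1.25% to 1.45% in primary tumours.

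Of the 90 members 88 passed the filter on low values; Cox6a2 and Cox8b did not. In limma, a linear model fitted across all genes, 1 member was called higher in lung metastases (Cox4i2) and 0 were called lower, at an adjusted p under 0.05. Of all 14003 genes tested 9.13% were called, 7.18% higher and 1.96% lower, so the members' share was below the background. At an unadjusted p under 0.05 in limma there were 3 members, Cox4i2 and Cox6b2 higher and Cox7a2l lower. Among all 14003 genes tested there were 3225. Both edgeR and DESeq2 called 0 members lower, against 1.48% and 3.71% of all genes. The median log2 change of the 88 members was -0.23, against -0.06 over all genes tested. Of the 88 changes 75 were negative (85.2%, against 54.9% of all genes). Without lung metastasis 3 the members' median was 0.002 and 44 of the 88 were negative (50%, against 51.9% of all genes). The negative median thus rested on that library. The 95% interval of a member's change had a median width of 1.23 log2 units, which bounds what 4 against 4 libraries could show for a single subunit.

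**Figure D1:**
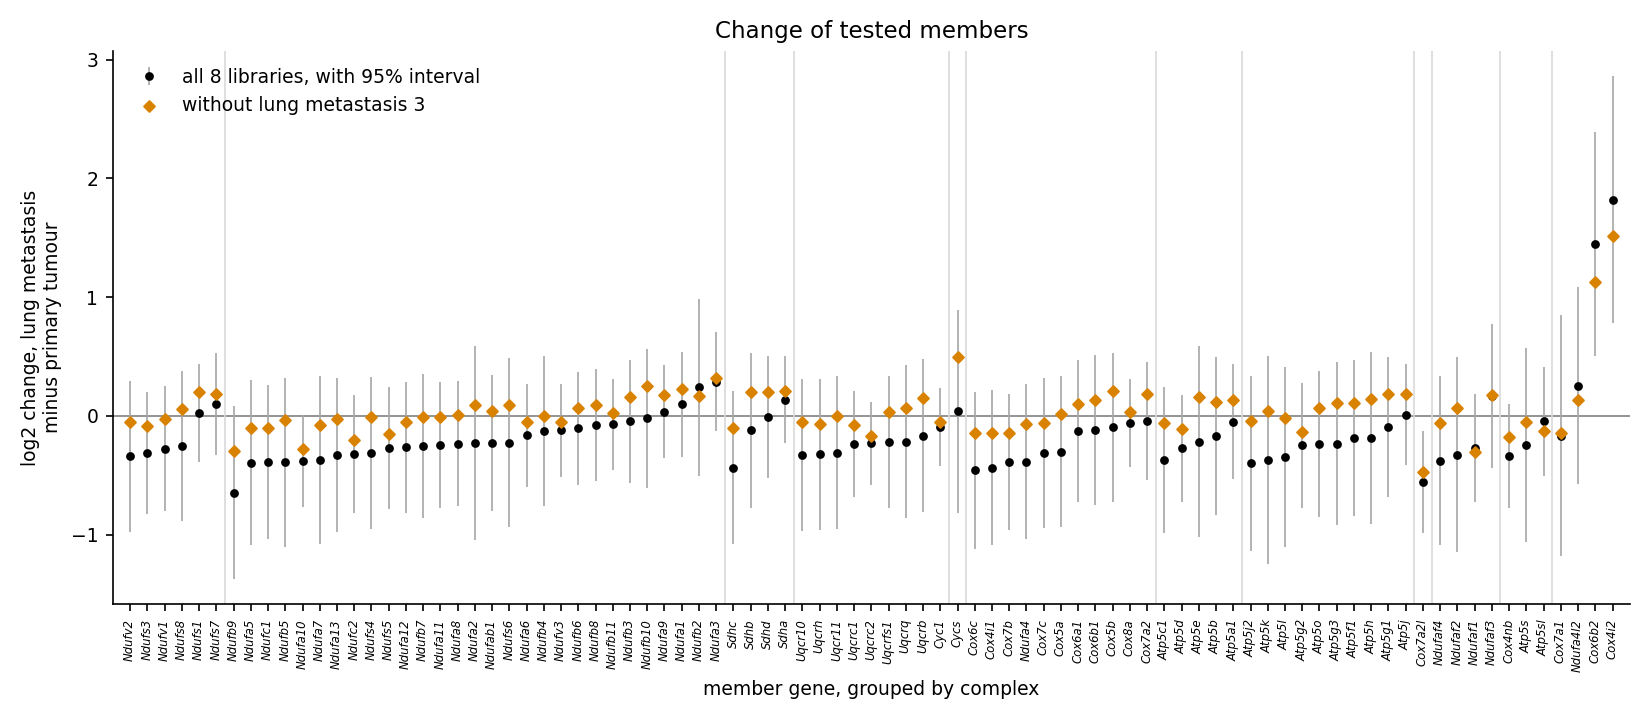
Log2 change (lung metastasis minus primary tumour, on the log2(value + 1) scale) of tested members, grouped by complex along the horizontal axis in the order core and accessory complex I, II, III, cytochrome c, IV, F1, Fo and stalk, Cox7a2l, assembly factors, genes that are no subunits, and isoforms. Black points with bars are the estimates from all 8 libraries with 95% intervals, and orange diamonds the estimates without lung metastasis 3; most diamonds lie near 0, while Cox4i2 and Cox6b2 stay above it.

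Mouse by mouse, the chain went different ways. In mouse 3, 80 of 88 tested members were lower in the metastasis than in the primary tumour (90.9%, against 52.9% of all genes tested), with a median log2 difference of -0.84. In mouse 4, 23 of 88 were lower (26.1%, against 52.1% of all genes) and the median difference was 0.26. In mouse 1, 68 of 88 were lower (77.3%, against 50.5% of all genes) with a median of -0.19. In mouse 2, 53 of 88 were lower (60.2%, against 47.9% of all genes) with a median of -0.09. Over all genes the 4 medians lay between -0.08 and 0.03. A mouse gives 1 library per tissue, so these values have no replicate check.

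**Figure D2:**
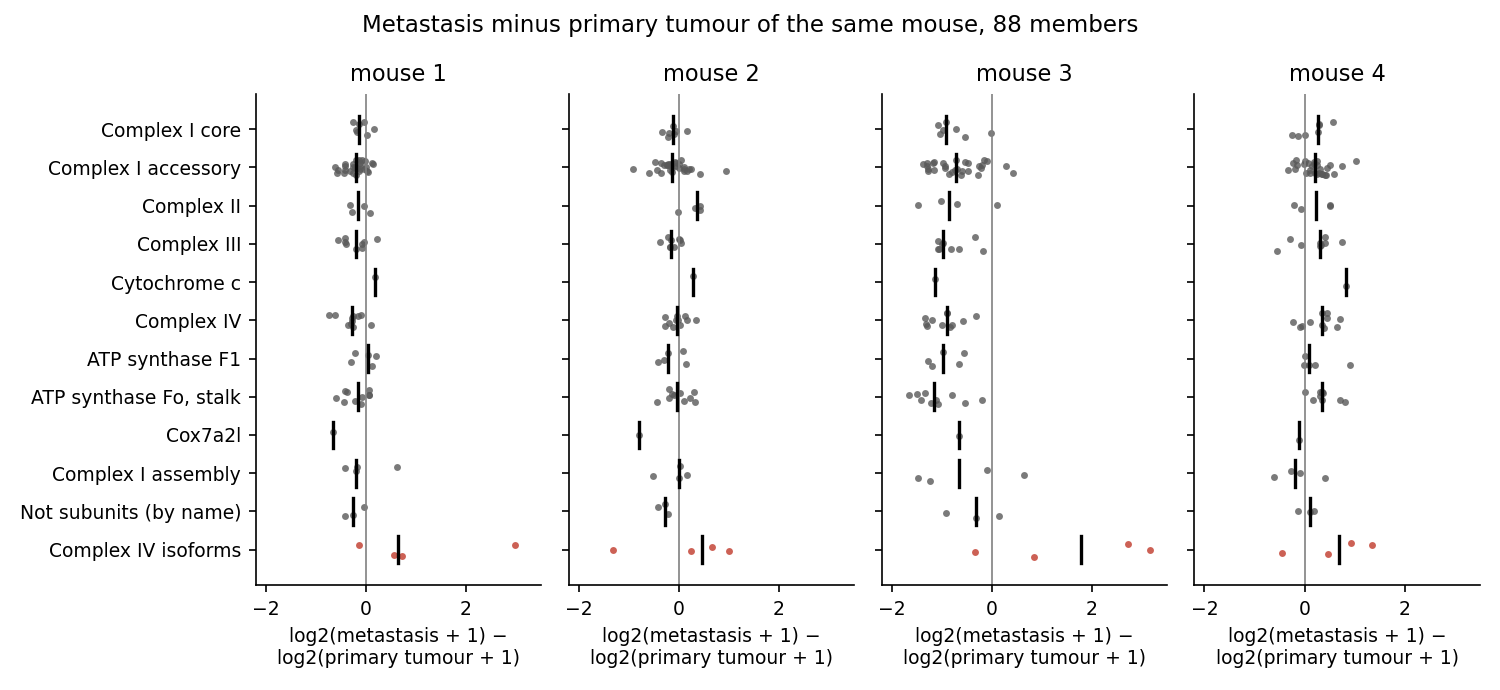
Difference in log2(value + 1) between the metastasis and the primary tumour of the same mouse, 1 panel per mouse. Each point is a tested member, rows are the complexes and other member groups, and the black bar is the median of the row; the bars of the chain complexes lie left of 0 in mouse 3 (all members, -0.84) and mostly right of it in mouse 4 (0.26), and the median of the 4 tested complex IV isoforms lies right of 0 in every mouse, with Cox7a1 or Ndufa4l2 left of 0.

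The low level in lung metastasis 3 ran through every complex. Of the 76 tested subunits 71 had their lowest value of all 8 libraries there, and of the 88 tested members 75 (85.2%), where 34.4% of all genes tested did. The median variation between metastases (CV) was 34.4% for tested members and 33% for all genes, against 15.1% and 19.2% between primary tumours. Without lung metastasis 3 the metastasis value was 17% for members and 20.4% for all genes. The share of lung, neutrophil and red-cell reads was highest, and depth lowest, in that library. The cell cycle list, 8 of 8 genes in the table, was low there too: it summed to 1732, 2073, 932 and 1925 in lung metastases 1 to 4, against 1010 to 1613 in primary tumours, and all 8 genes had their lowest metastasis value in metastasis 3. The part of these in the low level was not tested.

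Complex I, the NADH dehydrogenase and the largest of the complexes, had 0 of 36 subunits called. Its 7 nuclear core subunits, which carry the flavin and iron-sulphur clusters, summed to 887, 786, 498 and 963 in lung metastases 1 to 4, against 966, 878, 838 and 894 in primary tumours. Its 29 accessory subunits summed to 2626, 2136, 1354 and 3152 in the metastases, against 3113, 2539, 2434 and 2643. In both sums metastasis 3 was lowest and the groups overlapped. Log2 changes of the accessory subunits ran from -0.65 to 0.29.

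Ndufs3, a core subunit, had 79.6, 61, 34.7 and 58.7 in lung metastases 1 to 4, against 78.2, 66.4, 65.9 and 70 in primary tumours (adjusted p = 0.459 in limma), with overlap. Among accessory subunits, Ndufa10 (ENSMUSG00000026260) had 71.1, 67, 51.4 and 70.2 in metastases, against 71.2, 102, 78.8 and 88.2 in primary tumours, without overlap but with metastasis 1 and primary tumour 1 nearly touching (adjusted p = 0.227). Ndufb9 had 361, 268, 126 and 390 in metastases and 397, 505, 327 and 439 in primary tumours. It was lower in the metastasis of all 4 mice, while the groups overlapped (adjusted p = 0.274; log2 change -0.65, SE 0.33). Without lung metastasis 3 the log2 change was -0.29 for Ndufb9 and -0.09 for Ndufs3, which had -0.31 over all libraries.

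Over the 88 tested members, groups did not overlap for 4 that were lower in metastases (among them Ndufa10, Ndufaf1 and Cox7a2l) and 2 that were higher (Cox4i2 and Cox6b2). Over all genes tested, 7.56% were lower without overlap and 10.4% higher, so the members' shares were below the background. Likewise 11 members were lower in the metastasis of 4 of 4 mice, where 15.3% of all genes were, and 3 were higher, where 16.6% of all genes were. The 3 were Cox4i2, Cox6b2 and the accessory complex I subunit Ndufa3, which had 72.2, 53.7, 66 and 92.4 in metastases against 66.7, 53.3, 54 and 54.6 in primary tumours.

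Complex I assembly factors build the complex and are not part of it when finished. None of the 4 tested was called in limma; their log2 changes ran from -0.38 to 0.17. Ndufaf1, which helps assemble the membrane arm, had 13.4, 13.5, 14.5 and 12.6 in lung metastases and 15.4, 19.8, 15.5 and 15.5 in primary tumours, without overlap (adjusted p = 0.47; log2 change -0.27, SE 0.207). Unlike most members, Ndufaf1 was highest, among the metastases, in metastasis 3. Ndufaf4 had 22.3, 32.4, 11.4 and 34.1 against 25.6, 32.4, 27.8 and 36.5 (adjusted p = 0.518); its log2 change was -0.38, and -0.06 without lung metastasis 3.

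Complex II, succinate dehydrogenase, links the tricarboxylic acid cycle to the chain. Its 4 subunits differed from each other in lung metastasis 3. Sdha, the flavoprotein that oxidises succinate, had 267, 295, 218 and 239 in metastases against 254, 220, 203 and 249 in primary tumours, so that metastasis 3 stood above primary tumour 3 (adjusted p = 0.661; log2 change 0.14, SE 0.165). Sdhc, a membrane anchor, had 242, 201, 83.9 and 193 in metastases against 249, 204, 233 and 223 in primary tumours (adjusted p = 0.408; log2 change -0.43, SE 0.291). The log2 change without lung metastasis 3 was 0.21 for Sdha and -0.11 for Sdhc. In mouse 3 the log2 difference was 0.11 for Sdha and -1.46 for Sdhc. The iron-sulphur subunit Sdhb had 75.4 in metastasis 3 against 153 in primary tumour 3, and the other anchor, Sdhd, 105 against 170; these 2 were named after their values were seen. None of the 4 was called.

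Complex III, ubiquinol-cytochrome c reductase, had 0 of 9 subunits called in limma, with log2 changes from -0.33 to -0.09 and a median of -0.23, which was -0.05 without lung metastasis 3. Its subunits summed to 1282, 1157, 699 and 1425 in lung metastases 1 to 4, against 1545, 1266, 1216 and 1238 in primary tumours. The core proteins Uqcrc2 (115, 117, 88.3 and 87.1 in metastases against 120, 115, 112 and 128 in primary tumours; adjusted p = 0.422) and Uqcrc1 (197, 207, 122 and 173 against 169, 240, 192 and 213; adjusted p = 0.525) had the smallest p of the complex. The log2 change of Uqcrc1 was -0.23, and -0.07 without lung metastasis 3. Uqcrc2 had its lowest value in metastasis 4, the metastasis with the highest complex sum. Cycs, cytochrome c, which also triggers the apoptosome when it leaves mitochondria, had 47.6, 55, 14.7 and 61 in metastases against 41.8, 45, 33.4 and 34.1 in primary tumours. Metastases 1, 2 and 4 lay above all primary tumours and metastasis 3 below all of them (adjusted p = 0.963; log2 change 0.04, SE 0.386). Without lung metastasis 3 the log2 change was 0.49 (adjusted p = 0.09 in limma), also short of the threshold.

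Complex IV, cytochrome c oxidase, had 0 of 11 common subunits called. These summed to 2471, 2189, 1211 and 3012 in lung metastases 1 to 4, against 3009, 2311, 2468 and 2569 in primary tumours, with overlap. Cox6c had 369, 304, 151 and 425 in metastases against 442, 370, 349 and 452 in primary tumours; each metastasis was below the primary tumour of its mouse (adjusted p = 0.391; log2 change -0.46, SE 0.297). Cox7b had 85.4, 121, 53.8 and 122 against 144, 111, 100 and 126 (adjusted p = 0.404). Log2 changes of the 11 subunits ran from -0.46 to -0.04, with a median of -0.30. Without lung metastasis 3 the median was 0.01, and Cox6c and Cox7b each had a log2 change of -0.14.

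ATP synthase consists of the catalytic F1 head and the proton-carrying Fo part with its stalk. The 5 F1 subunits summed to 2567, 2684, 1312 and 2767 in lung metastases 1 to 4, against 2475, 2693, 2387 and 2466 in primary tumours. Apart from metastasis 3, the F1 sums of all 7 libraries lay within 2387 to 2767. The 10 Fo and stalk subunits summed to 1823, 1603, 759 and 2066 in metastases against 2101, 1479, 1748 and 1592 in primary tumours. In mouse 3 the median log2 difference was -1.16 for Fo and stalk and -0.97 for F1. None of the 15 was called in limma; the smallest p belonged to Atp5d (186, 169, 123 and 240 against 218, 226, 195 and 208; adjusted p = 0.456) and Atp5c1 (adjusted p = 0.464) in F1, and to Atp5j2 (231, 186, 85.1 and 291 against 311, 215, 216 and 226; adjusted p = 0.508) and Atp5g2 (adjusted p = 0.569) in Fo. Log2 changes were -0.27 for Atp5d, -0.37 for Atp5c1, -0.40 for Atp5j2 and -0.25 for Atp5g2, and without lung metastasis 3 they were -0.11, -0.06, -0.04 and -0.13.

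**Figure D3:**
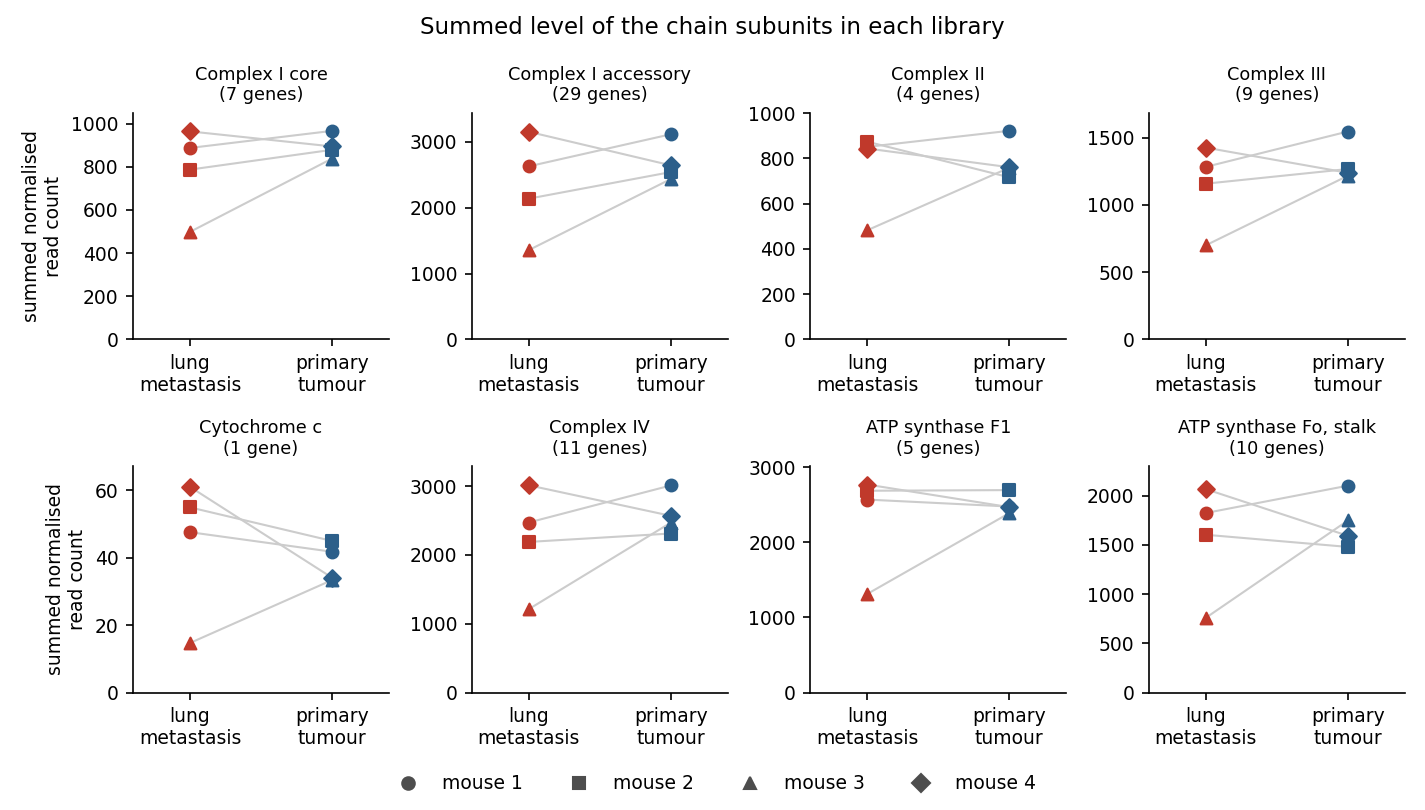
Summed normalised read counts (vertical axis, from 0) of the subunits of each complex, with the lung metastasis of each mouse on the left in red and its primary tumour on the right in blue, joined by a grey line; the marker shape gives the mouse. Metastasis 3 (triangles) is the lowest library in all 8 panels, for example 1312 against 2387 in primary tumour 3 for ATP synthase F1, while the other 3 metastases overlap the primary tumours in every panel but cytochrome c, where they lie above them.

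Cox7a2l (ENSMUSG00000024248), which joins complexes III and IV into supercomplexes, kept a different pattern. It had 219, 162, 163 and 253 in lung metastases 1 to 4, against 348, 282, 257 and 273 in primary tumours. The groups did not overlap, the metastasis was lower in all 4 mice, and metastasis 2, not 3, was the lowest. Its mean was 199 ± 44.4 in metastases and 290 ± 39.8 in primary tumours (SD, n = 4 each; adjusted p = 0.115 in limma, log2 change -0.56, SE 0.195), which did not pass. It passed with array weights (adjusted p = 0.042) and without lung metastasis 4 (0.0496), and lay between 0.042 and 0.282 over its 19 alternatives.

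The largest positive changes among tested members belonged to 2 isoforms of complex IV subunits, of which 1 passed the test. Cox4i2 (ENSMUSG00000009876) encodes the second isoform of subunit 4, known from lung, vascular smooth muscle and pericytes and for its regulation by oxygen. It had 15.8, 6.3, 22.8 and 7.56 in lung metastases 1 to 4 (399, 177, 337 and 180 reads), against 1.11, 3.59, 1.65 and 5.21 in primary tumours (28, 91, 49 and 148 reads). Every metastasis lay above every primary tumour, by the most in mice 1 and 3. The means were 13.1 ± 7.7 in metastases and 2.89 ± 1.88 in primary tumours (SD, n = 4 each), a ratio of 4.53, and the log2 change was 1.82 (SE 0.47, adjusted p = 0.0362 in limma).

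The call of Cox4i2 was not stable. It ended with the mouse as a block (adjusted p = 0.0847), with edgeR (0.0571), without lung metastasis 1 (0.101) or 3 (0.0508), without primary tumour 1 (0.109), 2 (0.0548) or 3 (0.107), and without both libraries of mouse 3 (0.119). The log2 change stayed positive, between 1.51 (without lung metastasis 3) and 2.09 (without primary tumour 4) when single libraries were left out. The common isoform of the same subunit, Cox4i1, named after its values were seen, had 630, 497, 267 and 719 in metastases against 768, 600, 661 and 664 in primary tumours, so the 2 isoforms ran in opposite directions in lung metastasis 3. The lung epithelium, neutrophil, pericyte and smooth muscle sums were each highest in metastases 3 and 1, as Cox4i2 was. The pericyte list, 9 of 9 genes in the table, summed to 137, 88.3, 229 and 89.6 in metastases 1 to 4. In primary tumours 1 to 4 the pericyte sum was 100, 336, 124 and 162. Its genes went both ways. Of its 9 genes, 1 was called higher (Des, 24.3 to 68.8 in metastases against 3.24 to 19.4 in primary tumours) and 2 lower (Rgs5, 2.84 to 5.22 against 41.4 to 146, and Abcc9). The smooth muscle list, 6 of 6 genes, summed to 178, 111, 254 and 157 in metastases against 80.5, 174, 85.2 and 89.7 in primary tumours. The part of these cells in the rise of Cox4i2 was not tested.

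Cox6b2 (ENSMUSG00000051811), an isoform of subunit 6b known from testis, had 3.44, 1.78, 7.17 and 2.1 in lung metastases (87, 50, 106 and 50 reads) and 1.71, 0.394, 0.236 and 0.211 in primary tumours (43, 10, 7 and 6 reads). All 4 metastases were above all primary tumours, though metastasis 2 exceeded primary tumour 1 by little. Among primary tumours only number 1 reached a value of 1, so Cox6b2 passed the filter on low values through its metastases, where it was high. Its p and its lack of overlap carry this selection. The log2 change was 1.45 (SE 0.427, adjusted p = 0.0626 in limma), short of the threshold. It passed with array weights (0.0214), with DESeq2 (0.0209) and without primary tumour 1 (0.0485), and lay between 0.0209 and 0.191 over its 18 alternatives.

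The heart and skeletal muscle isoforms Cox6a2 and Cox8b had low read counts. Cox6a2 had 3, 3.52, 5.48 and 0 in lung metastases 1 to 4 (76, 99, 81 and 0 reads), against 0, 0.0394, 0.438 and 0 in primary tumours (0, 1, 13 and 0 reads). Cox8b had 1.38, 0.569, 1.83 and 0 in metastases (35, 16, 27 and 0 reads), against 0.318, 0, 0 and 0 in primary tumours (8, 0, 0 and 0 reads). Both were present in metastases 1 to 3 and at 0 reads in metastasis 4, where a floor of 3 reads is 0.126. Neither was tested, because fewer than 4 libraries reached 1.

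Of the cardiac muscle list 8 of 13 genes were in the table, and they summed to 83.3, 43.3, 74.5 and 40.6 in lung metastases 1 to 4 and 138 to 338 in primary tumours. Tnnt2 made up most of the sum in primary tumours (134 to 330), and had 36.7, 24.7, 4.19 and 31 in metastases. The defining cardiac myosin Myh6 had 7.75, 1.42, 4.19 and 2.18 in metastases and 0 reads in all 4 primary tumours, and Myh7 had 9.41, 11.8, 41.7 and 5.97 against 0.715, 0, 0 and 0. In metastasis 4, where Cox6a2 and Cox8b were at 0 reads, the list was mixed: Myh6 had 52 and Myh7 142 reads, while Mybpc3 and Ryr2 had 0 and Actc1 had 1. In metastases 1 to 3, Mybpc3 had 108, 23 and 118 reads, Ryr2 72, 11 and 52, and Actc1 97, 27 and 127. In primary tumours 1 to 4, Mybpc3 had 30, 18, 14 and 23 reads, Ryr2 0, 0, 1 and 0, and Actc1 1, 28, 9 and 13. For Myl4 and Tnni3, also on the list, the groups overlapped. The skeletal muscle list (4 of 12 genes present) summed to 32.9, 35, 14.5 and 96.3 in metastases 1 to 4, against 24.6 to 95.2 in primary tumours. The part of such muscle in the isoform values was not tested. Cox7a1, a further muscle isoform, had 4.31, 1.21, 1.55 and 0.714 in metastases against 4.81, 0.868, 2.23 and 1.34 in primary tumours (adjusted p = 0.858; log2 change -0.17, SE 0.458).

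Ndufa4l2, a paralogue of the complex IV subunit Ndufa4 that is known to be induced by hypoxia, had 5.81, 2.92, 7.64 and 7.81 in lung metastases, against 3.62, 8.76, 3.78 and 3.66 in primary tumours. It was higher in the metastasis of mice 1, 3 and 4 and lower in that of mouse 2 (adjusted p = 0.72; log2 change 0.25, SE 0.373; 0.13 without lung metastasis 3). Primary tumour 2 was its highest library.

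**Figure D4:**
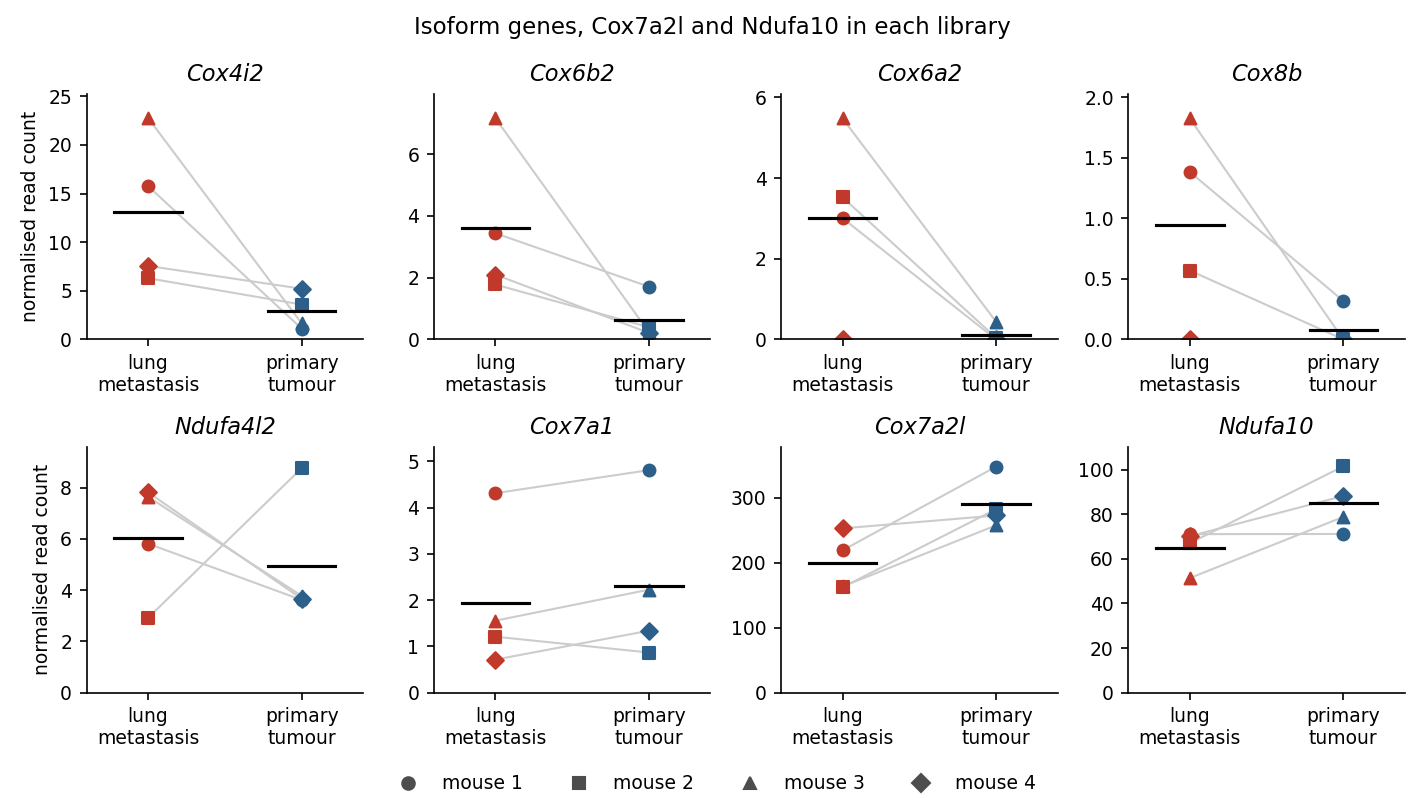
Normalised read counts (vertical axes, from 0, differing between panels) of the 6 complex IV isoform genes, Cox7a2l and Ndufa10, with lung metastases on the left in red and primary tumours on the right in blue. Lines join libraries of a mouse, marker shapes give the mouse and black bars are group means; Cox4i2 and Cox6b2 are higher and Cox7a2l and Ndufa10 lower in metastases without overlap, and Cox6a2 and Cox8b are at 0 in metastasis 4.

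The 3 genes matched by name alone were not called. Cox4nb, which lies beside Cox4i1 and encodes a subunit of an endoplasmic reticulum membrane complex, had 72.4, 69.6, 48.7 and 87.8 in lung metastases and 96.8, 80.8, 92.8 and 76.6 in primary tumours (adjusted p = 0.336). Atp5s, a coupling factor, had 8.26, 4.62, 3.92 and 10.4 against 10.1, 5.8, 5.12 and 11.5 (adjusted p = 0.727), lower in each metastasis by little. Log2 changes were -0.34 for Cox4nb, -0.25 for Atp5s and -0.05 for Atp5sl, which takes part in assembly; without lung metastasis 3 they were -0.18, -0.05 and -0.13.

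Other mitochondrial gene groups were low in lung metastasis 3 to different degrees. The median log2 deviation from a gene's mean over the 8 libraries was -0.89 there for the 76 subunits, -0.77 for carrier, pore and import genes, -0.49 for tricarboxylic acid cycle genes, -0.37 for assembly factors of complexes II to V and -0.22 for biogenesis regulators. Over all genes tested it was -0.05. Of all 14003 genes tested, 9.13% were called in limma, and 3225 had an unadjusted p under 0.05. Of 17 tricarboxylic acid cycle and pyruvate genes, 23 assembly factors of complexes II to V, 17 carrier, pore and import genes and 10 biogenesis regulators, 0 were called in limma in either direction, with 2, 0, 3 and 1 at an unadjusted p under 0.05. Their median log2 changes were -0.16, -0.21, -0.26 and -0.19, and without lung metastasis 3 they were -0.03, -0.07, 0.04 and -0.05. Carrier, pore and import genes summed to 1847 in metastasis 3, against 3913 to 4551 in the other 7 libraries.

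Within these groups the genes of smallest p did not pass the test. Tomm20, the import receptor of the outer membrane, had 72.4, 66.6, 29.7 and 65.2 in lung metastases against 113, 91.2, 102 and 97 in primary tumours, without overlap (adjusted p = 0.0746; log2 change -0.85, SE 0.263), and passed without lung metastasis 3 (0.0163, log2 change -0.56), without mouse 3 (0.047), with array weights (0.0166) and with DESeq2 (0.0405). Ogdh, of the 2-oxoglutarate dehydrogenase complex, ran the other way, with 133, 157, 179 and 109 against 104, 105, 101 and 83.4 (adjusted p = 0.112), highest in metastasis 3; it passed without lung metastasis 4 (0.0411), with array weights (0.0219) and with DESeq2 (0.0392). Idh2, mitochondrial isocitrate dehydrogenase, had 130, 138, 105 and 139 against 186, 141, 185 and 180 (adjusted p = 0.147; 0.0446 with array weights). The copper chaperone Cox17 had 129, 104, 69.7 and 177 against 96.9, 76.6, 88.1 and 71.3 (adjusted p = 0.329), higher in 3 of 4 mice, and passed without lung metastasis 3 (0.0375) and with array weights (0.0355).

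The remaining genes of smallest p in these groups also missed the threshold. Adjusted p was 0.283 for Fh1 (fumarase), 0.191 for Timm44 and 0.214 for Phb2. It was 0.31 for Atpaf1 and 0.32 for Lyrm7, and 0.169 for Myc, 0.256 for Esrra and 0.446 for Polrmt. Myc, which drives mitochondrial biogenesis among much else, had 134, 95.1, 31.6 and 104 in lung metastases and 129, 183, 161 and 149 in primary tumours.

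Of 10 HIF-linked genes, which respond to low oxygen and are not all mitochondrial, Cox4i2 was called higher and 2 were called lower. Of all genes tested 7.18% were called higher and 1.96% lower. Vegfa (log2 change 1.23, adjusted p = 0.0643 in limma) and Bnip3 (-0.90, adjusted p = 0.131) did not pass. Pdk1, a kinase that inhibits pyruvate dehydrogenase, had 36.8, 25.9, 24.8 and 49.2 in lung metastases and 62.8, 113, 68.4 and 71.2 in primary tumours. It was lower in every metastasis without overlap (adjusted p = 0.0167 in limma; log2 change -1.20, SE 0.262) and lost its call only without lung metastasis 2 or primary tumour 4 (0.0512 each; 0.00183 to 0.0512 over its 19 alternatives). Egln3, a HIF prolyl hydroxylase, had 139, 96.5, 46.1 and 104 in metastases against 154, 389, 171 and 286 in primary tumours (adjusted p = 0.0455; log2 change -1.36, SE 0.371). Its call ended under 9 of 19 alternatives, among them edgeR (0.0589), without lung metastasis 2 (0.0851) or 4 (0.0547), and without primary tumour 1 (0.0503), 2 (0.108), 3 (0.0635) or 4 (0.141). Thus Cox4i2 rose while Pdk1 and Egln3 fell, although all 3 stand on this list; primary tumour 2 had the highest Pdk1, Egln3 and Ndufa4l2 of all libraries.

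The promoters of the members were compared with those of all genes with a window, which were not limited to the 14003 genes tested. A higher share in members can thus also reflect that most members are expressed. The part of any motif in the low level of lung metastasis 3 was not tested. RefSeq windows of 300 bases on GRCm38.p6 (250 before the start and 50 after) were found for 74 of the 90 members. The NRF1 motif, bound by nuclear respiratory factor 1, was searched on either strand. Any base was allowed at an inner position of the motif, so a match need not be a palindrome. This motif was in 17 of the 74 (23%) and in 4.78% of all 27025 genes with a window. The ETS motif CCGGAAG, bound by GABPA, was in 21.6% of members and 9.12% of all, and the YY1 motif AAGATGGC in 13.5% and 2.88%. The hypoxia core ACGTG was in 28.4% of members and 19.7% of all, and GCGTG in 52.7% and 32.5%. A match describes letters in the window and is not a site shown to be bound.

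The following 4 windows show members that behaved differently, each given 5′ to 3′ on the gene's strand with NRF1, ETS and YY1 motifs in capitals. Atp5k, an Fo subunit with a log2 difference of -1.49 in mouse 3, and Sdha, which stood at 0.11 there, both hold the NRF1 motif, in Sdha at 3 places. Atp5k is not among the named genes and was chosen with its values known. Atp5l, the Fo subunit with the lowest difference in mouse 3 (-1.66), does not hold the NRF1 motif. Cox7a2l and Cox6b2, whose groups did not overlap, hold none of the 3 motifs in these windows. Other members, such as Cox7b and Uqcr10, hold none either, while Ndufaf1, also without overlap, holds the ETS motif.
Atp5k, chr5:108434350-108434649, minus strand: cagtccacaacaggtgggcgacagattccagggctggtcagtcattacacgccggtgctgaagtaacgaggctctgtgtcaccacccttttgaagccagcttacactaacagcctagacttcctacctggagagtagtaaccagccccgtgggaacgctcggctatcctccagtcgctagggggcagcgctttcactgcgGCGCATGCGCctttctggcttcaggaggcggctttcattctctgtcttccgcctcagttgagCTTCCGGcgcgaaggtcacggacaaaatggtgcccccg
Sdha, chr13:74350191-74350490, minus strand: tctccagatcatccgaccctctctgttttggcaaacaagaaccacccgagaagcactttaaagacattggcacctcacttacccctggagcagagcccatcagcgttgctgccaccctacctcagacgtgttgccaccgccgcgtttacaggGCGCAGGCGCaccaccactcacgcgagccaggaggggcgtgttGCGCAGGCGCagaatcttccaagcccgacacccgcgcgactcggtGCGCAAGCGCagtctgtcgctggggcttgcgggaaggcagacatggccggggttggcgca
Cox7a2l, chr17:83514284-83514583, minus strand: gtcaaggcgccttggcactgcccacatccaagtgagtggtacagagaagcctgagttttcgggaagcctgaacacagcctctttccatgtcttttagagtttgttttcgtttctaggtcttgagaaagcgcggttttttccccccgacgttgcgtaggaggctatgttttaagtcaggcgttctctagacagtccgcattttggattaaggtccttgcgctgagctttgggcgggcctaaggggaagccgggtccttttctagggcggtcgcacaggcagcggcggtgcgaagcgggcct
Cox6b2, chr7:4753045-4753344, minus strand: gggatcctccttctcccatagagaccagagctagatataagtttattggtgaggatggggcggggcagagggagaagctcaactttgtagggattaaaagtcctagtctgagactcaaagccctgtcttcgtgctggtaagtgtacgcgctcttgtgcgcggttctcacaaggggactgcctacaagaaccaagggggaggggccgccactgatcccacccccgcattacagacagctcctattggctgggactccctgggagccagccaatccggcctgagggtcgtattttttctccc
In Atp5k the NRF1 motif lies at positions 201 to 210 of the window and the ETS motif, on the opposite strand, at 263 to 269; in Sdha the NRF1 motifs start at 153, 196 and 241. The gene start is at position 251. Atp5k had 82.2, 63.2, 26.5 and 117 in lung metastases against 125, 72.8, 76.2 and 66.4 in primary tumours. Its log2 change was -0.37, and 0.04 without lung metastasis 3. Atp5k and Sdha share a motif and differed in lung metastasis 3, and the part of the motif in their values was not tested.

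Many chain subunits have processed pseudogenes of near-identical sequence, and overlapping neighbours such as antisense genes cannot be separated without strand. How the authors counted reads with several matches is not given in the sources used here, so the level of a single subunit is uncertain.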

How the data were processed

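Whole-tissue RNA of 4 lung metastases and 4 primary tumours of the breast cancer (BC) model was analysed. RNA was purified by RNeasy and turned into TruSeq RNA libraries, per the labels' protocols. The build was mm9 per the submitters' processing notes. Details not given in the sources used here include the aligner, counting tool, annotation and handling of reads with several matches. The authors deposited signal values: counts of reads per gene, each divided by a scaled library size and brought to a level of about 1000000. The design had assumed CPM, but the column totals differed. In the 8 columns 100% of values were whole multiples of 1 read (tolerance 0.05 reads), which recovered the reads; 12 columns of another tumour model were not used, because they do not follow the gene column.

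From these values limma 3.58.1 (R 4.3.3) was run with an intensity trend on log2(value + 1), a scale that understates changes of low genes. Genes that reached 1 in at least 4 libraries entered, and p-values were adjusted by Benjamini-Hochberg over 14003 genes, with calls under 0.05. Unless another tool is named, each adjusted p is from limma. Alternatives were other pseudocounts, filters and scalings, array weights, the mouse as a block, edgeR 4.0.16 and DESeq2 1.42.0 on recovered reads, and leaving out each library. The fits were tested on simulated data. Titles number the mice and the series describes matched tumours, so a number pairs the tissues of an animal; deviations from group means correlated at a median of 0.021 (-0.151 to 0.096) between the libraries of a mouse. The members, gene lists and tests were chosen with earlier results of these data known. Named genes were each called member, the 2 members of smallest p in each list (the single one of a list of 1), every tested isoform and the 3 genes of smallest p in each pathway list; 1 of these is not reported here. Promoter windows were matched by symbol (86 members) or synonym (4), the first window of a gene being used. Floors and totals cover counting error only, since reads carry no molecular identifiers.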

Additional observations from a re-analysis of the deposited data

Results flagged for a closer look

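Within the groups of 4 libraries, 102 sets of values were checked for a library far from the other 3, and 12 were flagged; about 1 set in 20 is flagged by chance. In lung metastases the library was metastasis 3 each time. The complex II sum was 482 there, against 844 to 874 in the other 3 metastases. The ATP synthase F1 sum was 1312, against 2567 to 2767. Tomm20 had 29.7, against 65.2 to 72.4.

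Among primary tumours, number 1 had the highest sum of all members (14725, against 12332 to 12667), the highest complex III sum (1545, against 1216 to 1266), the highest Atp5j2 (311, against 215 to 226) and the highest Cox6b2 (1.71, against 0.211 to 0.394). Primary tumour 2 had the highest Ndufaf1 (19.8, against 15.4 to 15.5), Ndufa4l2 (8.76, against 3.62 to 3.78) and Pdk1 (113, against 62.8 to 71.2), and the lowest Idh2 (141, against 180 to 186). Primary tumour 4 had the lowest Atpaf1 (8.28, against 10.1 to 10.4).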

How the results depend on the processing

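Of 14003 genes, 1005 were called higher and 274 lower. Higher calls were 644 with a filter of 5 in 4 libraries and 1536 with array weights, and lower calls were 747 with array weights, 517 with DESeq2 and 176 with the mouse as a block. Leaving out 1 library gave 627 to 1237 higher and 84 to 431 lower calls. Among members, 1 was called higher and 0 lower. The higher count was 2 with array weights and DESeq2, and 0 with the mouse as a block, with edgeR and without mouse 3 (chosen after seeing the data); it was 0 to 1 without single libraries. The lower count was 1 with array weights and 0 to 1 without single libraries. The members' median log2 change ran from -0.358 to 0.002 when 1 library was left out, with the highest value without lung metastasis 3. Over 38 named genes, 685 of the single-gene results stayed on the same side of the threshold, 19 lost a call and 15 gained one. The 685 include uncalled genes whose direction changed, such as Cycs (log2 change -0.167 to 0.493 when 1 library was left out). Causes were not tested. The block of the mouse ended the call of Cox4i2 (adjusted p = 0.0847) and of no other named gene. Cox6a2 and Cox8b, with at most 99 reads in a library, did not pass the filter on low values.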
